A study of Mus musculus with 5 samples.

Results

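Clone 2 is a population of mouse CD8+ T cells grown from 1 founder cell, and it is set here against the original, non-clonal CD8+ population. Clone 2 (2 samples) and the population (1 sample) make up 3 of the 5 samples of the series. Clone 1 (2 samples) is given only as context. All samples are primary CD8+ T cells of C57BL/6 mice, and the series names no genotype or treatment that differs between them. Per the labels, naive T cells of the spleen were stimulated with IL2 before single cells were sorted and expanded, and both clones are recorded at 15 cell divisions. No number of divisions is recorded for the population, so descent from 1 founder and expansion cannot be told apart here. The clone is 1 founder's progeny, so nothing measured in it describes clones in general. Both clone 2 samples are in 1 deposited file and cannot be told apart, so each side of the comparison was 1 library and no value has a spread between replicates. Tests compare these libraries, not conditions. The files name genomic fragments by number, with no genes, so the cell type was not checked against marker genes.

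In mammals DNA is methylated mostly at cytosines of CpG dinucleotides. After replication the maintenance enzyme DNMT1 copies the state of the old strand onto the new one, while the de novo enzymes DNMT3A and DNMT3B add methylation and TET enzymes start its removal. In T cells methylation patterns are known to be set during lineage commitment and to be changed at effector genes upon activation. A clone starts from the patterns on the few chromosome copies of its founder, and the study's design asks how far its methylation varies from the population of origin.

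DNA was cut with MspI at CCGG sites, each fragment was tagged, treated with bisulfite and sequenced, so that a line of the file is 1 molecule with a call at each CpG it was read at. The population library listed 8463942 molecules and clone 2 listed 8977287, of which 5588357 and 5567534 carried a call. The median depth of a CpG was 7 molecules in the population and 5 in clone 2. Of all CpG calls, 53.7% were methylated in the population and 52.3% in clone 2. At least 10 molecules in both libraries covered 681261 CpGs and 115801 fragments with 4 or more CpGs, and these were compared.

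The molecules themselves show the form that the departures took. Patterns are written here in CpG order, with a filled circle for a methylated and an open circle for an unmethylated CpG, and only molecules read at every CpG of the stretch are counted. The 6 fragments shown were chosen after their values were seen. Fragment 178898 was disordered in the population, with 10 different patterns on 12 molecules over its CpGs 1 to 7. In clone 2, 2 patterns that differ at CpGs 3 and 4 made up 16 of 20 molecules:
Fragment 178898, clone 2, 9 molecules: ●●●●○○○
Fragment 178898, clone 2, 7 molecules: ●●○○○○○
Fragment 178898, population, 2 molecules: ○○○○○○○
Fragment 178898, population, 2 molecules: ○○○○●●●
Neither of the leading clone 2 patterns was among the 2 commonest of the population. Clone 1 carried a different leading pattern, ●●●●●○○, on 6 of 9 molecules of fragment 178898.

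Fragment 746416 also kept a pair of patterns in clone 2, at CpGs 2 to 5:
Fragment 746416, clone 2, 11 molecules of 21: ○○●●
Fragment 746416, clone 2, 9 molecules of 21: ○○○●
Fragment 746416, population, 7 molecules of 20: ○○○○
Fragment 746416, population, 3 molecules of 20: ●●○●
The clone 2 patterns differ from each other at CpG 4 alone, and the population spread over 9 patterns. Fragment 746416 in clone 1 had ●●○○ on 10 and ○●○○ on 9 of 19 molecules, which are other patterns than those of clone 2.

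Other fragments held a single pattern in clone 2 that mixed methylated and unmethylated CpGs:
Fragment 1440069, CpGs 2 to 5, clone 2, 18 molecules of 21: ○●○●
Fragment 1440069, CpGs 2 to 5, population, 8 molecules of 13: ●●●●
Fragment 1385218, CpGs 2 to 5, clone 2, 14 molecules of 14: ○○●●
Fragment 1385218, CpGs 2 to 5, population, 8 molecules of 16: ●●●●
Fragment 606664, CpGs 2 to 6, clone 2, 28 molecules of 36: ○●○○○
Fragment 606664, CpGs 2 to 6, population, 13 molecules of 17: ○○○○○
Fragment 673647, CpGs 2 to 7, clone 2, 21 molecules of 22: ○○○●○●
Fragment 673647, CpGs 2 to 7, population, 4 molecules of 12: ○○○●●●
Fragment 1440069 lost methylation at 2 CpGs that alternate with methylated ones, and fragment 606664 gained it at 1 CpG among unmethylated neighbours.

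**Figure D1:**
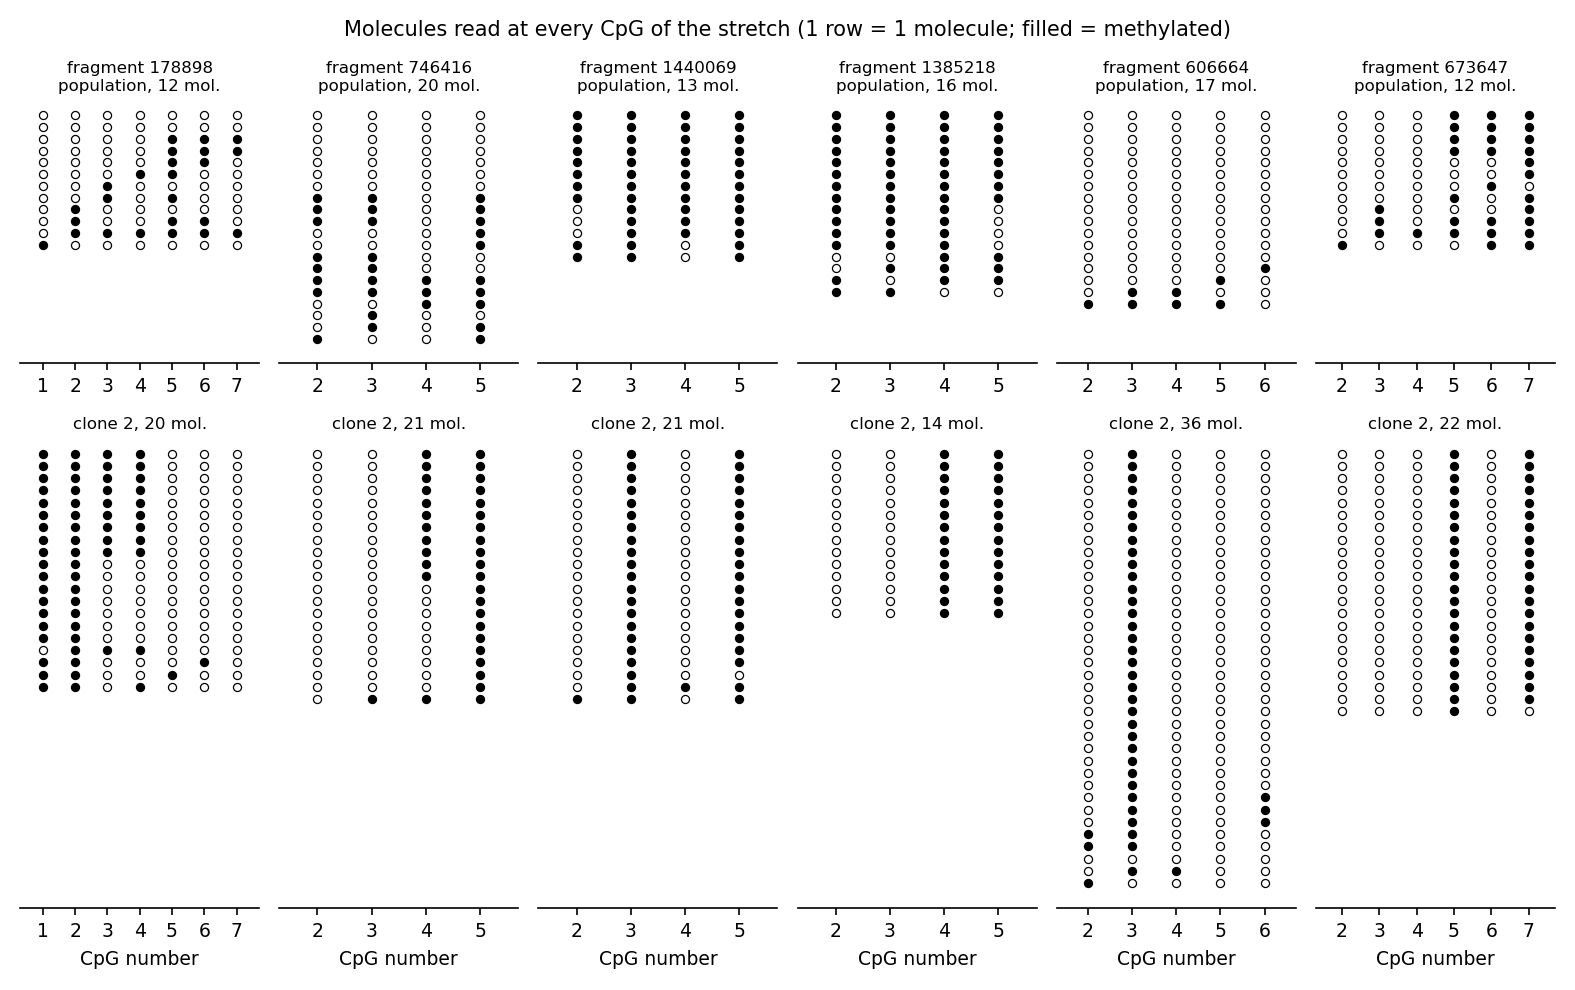
Molecules of the 6 fragments in the population (top) and clone 2 (bottom), 1 row per molecule and 1 column per CpG, filled where methylated, restricted to molecules read at every CpG shown. In clone 2, 14 of 14 molecules of fragment 1385218 carried the same mixed pattern, against 6 patterns on 16 molecules of the population.

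At single CpGs, clone 2 held both gains and losses of methylation relative to the population. Fisher's exact test (two-sided), run on the molecules of 681261 CpGs, called 11712 of them (1.72%) at a Benjamini-Hochberg adjusted p under 0.05 and a gap of 20 percentage points or more. Clone 2 was higher at 7523 CpGs (1.1%) and lower at 4189 (0.615%). Higher CpGs went from a median of 21.4% in the population to 92.3% in clone 2, and lower ones from 85.2% to 16.7%. In clone 2, 4067 of the called CpGs were at 90% or more, 1829 at 10% or less and 2304 between 40 and 60%. Thus complete states in clone 2 were joined by a group of CpGs near the middle of the scale.

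How often a CpG was called depended on its level in the population and on depth. CpGs at 40 to 60% in the population were called at 11.3%, those at 20 to 40% at 8.61% and those at 60 to 80% at 4.2%. Between 90 and 100% the share was 0.713%, and under 10% it was 0.899%. With 10 to 14 molecules in the shallower library 0.897% were called, and with 30 to 49 molecules 4.36%, so most shallow CpGs could not have shown a moderate change. At 10 molecules each, a CpG with 0 methylated molecules in the population needed 8 in clone 2 to pass, and no outcome could pass from 50%. At 30 molecules each, 10 and 28 were needed. CpGs at the fragment ends, inside the MspI sites, were called at 1.09%, against 1.86% of inner CpGs. These rates were not matched for depth, and ends can be shallower. Fragment 1440069, for example, had 29 clone 2 molecules at CpG 1 and 51 at CpG 2.

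Whole fragments were compared by their methylated molecules, those on which methylated CpGs made up over 50% of the CpGs read. Molecules at exactly 50% were counted as not methylated. Of 115801 fragments with at least 4 CpGs, 1368 (1.18%) passed the same thresholds in Fisher's exact test, 995 higher in clone 2 (0.859%) and 373 lower (0.322%). Higher fragments moved from a median of 25% methylated molecules to 89.3%, and lower ones from 80% to 17.9%. The balance of direction depended on what counted as a methylated molecule. Higher calls were 72.7% of the total by this majority, 51.8% when every observed CpG had to be methylated (2115 calls) and 85.5% when 1 was enough (1210 calls).

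Fragments with fewer CpGs were called more often. The share was 1.49% for 4 CpGs, 1.34% for 5 to 9, 0.665% for 10 to 19 and 0.278% (13 of 4679) for 20 or more. These shares were matched neither for the level in the population nor for depth. Of the calls at 10 to 19 CpGs 132 were rises and 34 falls, while the 13 with 20 or more divided into 7 and 6. The starting level mattered as for single CpGs. Fragments at 10 to 60% in the population were called at 7.55 to 9.21% over its 3 classes, those at 60 to 80% at 2.94% and those over 90% at 0.219%.

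**Figure D2:**
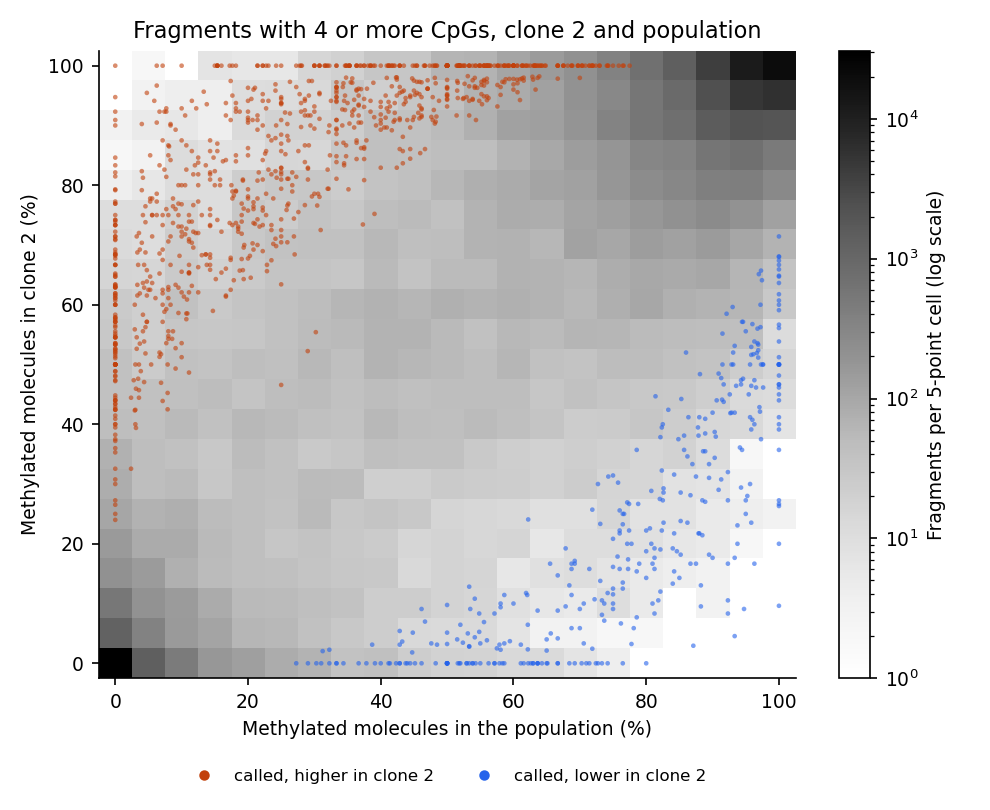
Percentage of methylated molecules in the population (x axis) and in clone 2 (y axis) for 115801 fragments, with grey for the number of fragments on a log scale and points for the 1368 called ones, 995 higher (orange) and 373 lower (blue) in clone 2. Called fragments gather at the upper and lower edges for clone 2, and 203 of them lie between 40 and 60%.

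By the majority of the CpGs on each molecule, the fragments that rose most went from no or almost no methylated molecules to nearly all. Their single CpGs did not all follow. Fragment 689517, which has 4 CpGs, was methylated on 0 of 13 population molecules (Wilson 95% interval 0 to 22.8%) and on 13 of 13 of clone 2 (77.2 to 100%). Intervals cover counting error only. Its CpG 3 went from 0 of 13 to 12 of 12, and clone 1 had 1 of 17 methylated molecules. Fragment 1514989 (8 CpGs) had a methylated majority on 1 of 16 population molecules, 11 of 11 of clone 2 and 0 of 26 of clone 1. None of its single CpGs had enough molecules to be tested. Its CpG 7 was already at 10 of 13 in the population, and its CpG 5 was at 0 of 8 in clone 2. In these 2 fragments clone 1 stood with the population.

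In the other 8 of the 10 widest rises, the share of methylated molecules in clone 1 also lay above that of the population. Fragment 1395290 (5 CpGs) was methylated on 0 of 15 population molecules, 36 of 38 of clone 2 and 27 of 31 of clone 1. Fragment 462183 (7 CpGs) had 0 of 28, 18 of 20 and 23 of 29 in the same order. Fragment 273157 had 0 of 23, 12 of 13 and 14 of 26. These comparisons share the population library, so they are not independent of each other.

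The 10 widest rises held 1 pair of adjacent numbers and 1 pair 2 numbers apart. Fragments 139822 and 139823 had 2 of 32 and 0 of 12 methylated molecules in the population and 29 of 30 and 10 of 11 in clone 2. None of the 4 tested CpGs of fragment 139823 was called. Fragments 1395480 and 1395482, which have 15 and 23 CpGs, had 1 of 14 and 1 of 21 in the population, and 21 of 21 and 21 of 22 in clone 2. On fragment 1395482 8 of 18 tested CpGs were called, all higher. Its CpG 18 stayed low, with 1 of 18 molecules in the population and 2 of 21 in clone 2.

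Fragment 608055 has 35 CpGs, the most among called fragments, and rose from 1 of 10 methylated molecules to 14 of 14 (Fisher's exact test, adjusted p 0.00232). Fragment 1001450, with 22 CpGs, rose from 2 of 19 to 22 of 24, with 10 of 18 tested CpGs called. Fragments 383265 and 267165, with 24 and 29 CpGs, ended in between, from 0 of 20 to 11 of 17 and from 1 of 22 to 9 of 16. Clone 1 also lay above the population on these fragments. It had 16 of 17 methylated molecules on 608055, 16 of 22 on 1001450, 10 of 20 on 383265 and 17 of 19 on 267165. On fragment 1395482 clone 1 had 32 of 33. CpG-dense fragments are mostly unmethylated in mammalian genomes, and these 5 most CpG-rich rises (fragment 1395482 included) had at most 2 methylated molecules in the population. Single CpGs were partly methylated there on some of them, with 7 of 9 at CpG 5 and 5 of 10 at CpG 30 of fragment 608055. Fragment 1395482 had 9 of 19 at CpG 20, while fragment 383265 had no more than 1 methylated molecule at any CpG. On fragment 608055 2 of 5 tested CpGs were called, and clone 2 had 0 of 9 at CpG 26.

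At all 10 of the widest falls, clone 1 differed from clone 2 by the same test. In several of them the change lay in part of the CpGs. Fragment 1440069 fell from 24 of 24 methylated molecules to 5 of 52 (Fisher's exact test, adjusted p 3.65e-10). Clone 1 stood at 43 of 46. Its CpGs 2 and 4 went from 18 of 24 and 20 of 22 to 2 of 51 and 4 of 51, while CpG 3 was at 23 of 23 and 49 of 51. Clone 2 molecules thus mostly lay at or under 50%, while CpGs 1, 3 and 5 of the fragment stayed methylated (26 of 29, 49 of 51 and 20 of 21). The pattern ○●○●, for example, is at exactly 50% and was counted as not methylated.

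Fragment 1385218 fell from 27 of 31 methylated molecules to 1 of 34 (Fisher's exact test, adjusted p 1.05e-08). Clone 1 stood at 36 of 37. The change lay in CpGs 2 and 3, at 0 of 32 and 0 of 33 in clone 2, while CpGs 4 and 5 were methylated on 32 of 32 and 16 of 16 molecules. Its pattern ○○●● is likewise at exactly 50%, which was counted as not methylated. Fragment 547104 went from 14 of 15 to 1 of 22, all its molecules in every library being on the plus strand. Its CpGs 1, 2 and 6 were called, and CpGs 4 and 5 remained on 11 of 21 and 12 of 20 molecules.

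A fall along most of a fragment was also seen. Fragment 874680, with 10 CpGs, fell from 15 of 17 to 2 of 21, with 22 of 22 in clone 1, and 8 of 9 tested CpGs were called lower. All its molecules in every library were on the minus strand. Over CpGs 3 to 10, fragment 874680 had ○○○○○○○○ on 9 and ●○○○○○○● on 5 of 17 clone 2 molecules. Fragment 245694 fell from 24 of 26 to 2 of 19, with 5 of 6 tested CpGs called. The remaining falls among the widest 10, fragments 1097913, 1546401, 1477714, 443552 and 307890, rested on 10 to 12 clone 2 molecules each.

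The most CpG-rich fragments that fell were intermediate in the population by their methylated molecules, and at most 1 clone 2 molecule had a methylated majority. Fragment 131740, with 21 CpGs, went from 16 of 24 to 0 of 29, with 10 of 11 tested CpGs called and 10 of 19 in clone 1. Its CpG 20, not called, kept 12 of 23 molecules. Fragment 131723, also with 21 CpGs, went from 8 of 18 to 0 of 32. Its CpG 5 stood apart with 12 of 26 methylated molecules in clone 2, while 7 of 19 tested CpGs were called lower. Fragments 1523702, 1040788 and 397517 went from 8 of 13, 11 of 20 and 8 of 12 to 0 of 22, 1 of 30 and 1 of 24. Their single CpGs were not all low in clone 2. On fragment 1040788 CpGs 2 and 3 were methylated on 26 of 27 and 25 of 26 clone 2 molecules and CpG 5 on 14 of 29. Fragment 1523702 had 14 of 21 at CpGs 14 and 15, and fragment 397517 had 19 of 22 at CpG 3.

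Very deep fragments are limited by the number of tags. A strand of a fragment can hold at most 77 molecules, 1 per tag, and fragment 1389155 had 74 on each strand in clone 2, so further molecules of these strands could not be counted apart. Its methylated molecules were 42 of 139 in the population, 82 of 148 in clone 2 and 52 of 146 in clone 1. Fragments 1389157, 1389102, 1389107 and 1389162, which carry nearby numbers, were also higher in clone 2, by 21.6, 36.1, 23.2 and 47.9 percentage points. In the same order, methylated molecules were 25, 37.3, 29 and 20.3% in the population and 46.6, 73.4, 52.2 and 68.2% in clone 2. Clone 1 also lay above the population on each, at 52.8, 61, 36.9 and 40%. The deepest falls were less crowded. Fragment 481018 (4 CpGs) went from 17 of 38 to 1 of 55 and fragment 42260 from 22 of 32 to 10 of 60. Fragment 1451093 went from 16 of 37 to 2 of 55, with 0 of 41 in clone 1. Fragment 1029253 went from 28 of 45 to 13 of 54, and there the 12 of 24 molecules of the plus strand stood against 1 of 30 of the minus strand. Fragment 129100 went from 35 of 38 to 31 of 53 with 1 CpG called higher and 2 lower.

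At called fragments near the middle in clone 2, most of its molecules were mixed. The 203 called fragments at 40 to 60% in clone 2 were counted by molecules with at least 4 observed CpGs. In clone 2, 12.4% of these were wholly unmethylated, 16.5% wholly methylated and 71.1% mixed, against 35.3%, 20.5% and 44.2% in the population. The fragments were chosen on the same clone 2 molecules. The shares at fragments of 40 to 60% that were not called were not computed. Fragment 754272, with 29 of 55 methylated molecules in clone 2 and 3 of 33 in the population, shows how a middle value can arise. Its CpG 3 was methylated on 52 of 53 clone 2 molecules, CpG 1 on 0 of 24, and CpGs 2 and 4 on 18 of 50 and 35 of 54. The strands, which are read from opposite ends and so cover different CpGs, had 4 of 26 and 25 of 29 methylated molecules.

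Over all called fragments, those higher and those lower in clone 2 held different mixtures. The same molecules had entered the calls, and molecules at exactly 50% counted as not methylated. Mixed molecules could thus make a fall more readily than a rise, and how much of the contrast this accounts for was not tested. Where clone 2 was higher, wholly unmethylated molecules went from 28.2% in the population to 3.87% and wholly methylated ones from 8.95% to 33.4%, while mixed molecules stood at 62.8% and 62.7%. Where it was lower, wholly methylated molecules went from 36.9% to 8.69%, wholly unmethylated ones from 8.42% to 18.2%, and mixed ones from 54.7% to 73.1%. Over all 115801 tested fragments mixed molecules were 28% in the population and 29% in clone 2. At the 141 called fragments with at most 10% methylated molecules in clone 2, 68.1% of its molecules were still mixed, and 31.8% were wholly unmethylated.

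Most called CpGs were the only one called, or 1 of few, on their fragment. The 11712 called CpGs lay on 8916 fragments, and 7143 of these fragments held 1 called CpG. Of 6403 fragments with a called CpG and at least 4 tested, 4802 had 1 called CpG and 19 had every tested CpG called. Only 21.8% of called CpGs lay on called fragments. The lone called CpGs differed by a median of 54.5 percentage points, and the tested CpGs next to them by 8.7, against 3.7 over all tested CpGs. Of the neighbours of lone higher CpGs 60.7% were higher, against 35.8% of all tested CpGs, and of those of lone lower CpGs 42.8% were lower, against 26.8%. In all these shares a CpG with no difference counted as not sharing the direction. How many neighbours had no difference was not counted. The shares therefore do not show whether neighbours tended to go the way of the called CpG. A called CpG is chosen for a wide difference and its neighbours are not, which widens this contrast.

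Examples show how sharp the change at a lone CpG could be. On fragment 582364 CpG 5 went from 24 of 26 methylated molecules to 1 of 40, while CpGs 2, 3 and 4 were at 39 of 39, 36 of 38 and 39 of 39 in clone 2. On fragment 597209 CpG 2 went from 29 of 39 to 2 of 53, with 54 of 55 at CpG 3. On fragment 606664 CpG 3 rose from 2 of 19 to 36 of 38, with 4 of 38 and 1 of 38 at the CpGs on either side. None of these 3 fragments was called as a whole.

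On 155 fragments CpGs were called in both directions, and 5 of the 149 of these that could be tested as fragments were called (3.36%, against 1.18% of all tested fragments). Fragment 1041066, with 17 CpGs, had 3 CpGs higher and 2 lower. Its CpGs 9 and 12 rose from 9 of 24 and 7 of 24 to 34 of 35 and 34 of 34, and its CpGs 4 and 5 fell from 12 of 22 and 17 of 25 to 2 of 37 and 1 of 37. By whole molecules it was alike in both libraries, with 8 of 27 methylated in the population and 13 of 40 in clone 2. Fragment 131737 had 5 CpGs lower and 2 higher out of 12 tested. At CpG 3 it went from 15 of 23 to 0 of 46 and at CpG 12 from 14 of 22 to 40 of 41.

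Long stretches of these fragments showed which CpGs went together. Over CpGs 2 to 13 of fragment 131737 the population had 10 patterns on 10 molecules. Clone 2 had 8 patterns on 20 molecules, led by the following:
Fragment 131737, clone 2, 7 molecules: ○○○○○○●○○●●○
Fragment 131737, clone 2, 6 molecules: ●○○○●○●●●●●○
Both patterns are unmethylated at CpGs 3 to 5 and methylated at CpGs 8, 11 and 12. Fragment 219110 gave ●●○●○○○●○○○○ on 7 and ○●○○○●○○○○○○ on 3 of 25 clone 2 molecules over CpGs 9 to 20, while 13 population molecules carried 13 patterns. Over CpGs 5 to 16 of fragment 1279769 clone 2 had ●●●●●●●○●●●● on 18 and ●○●●○●●●●●●● on 7 of 34 molecules. All 44 of its molecules had a methylated majority, as had 25 of 25 in the population, and its called CpGs, 1 higher and 1 lower, left the fragment uncalled.

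**Figure D3:**
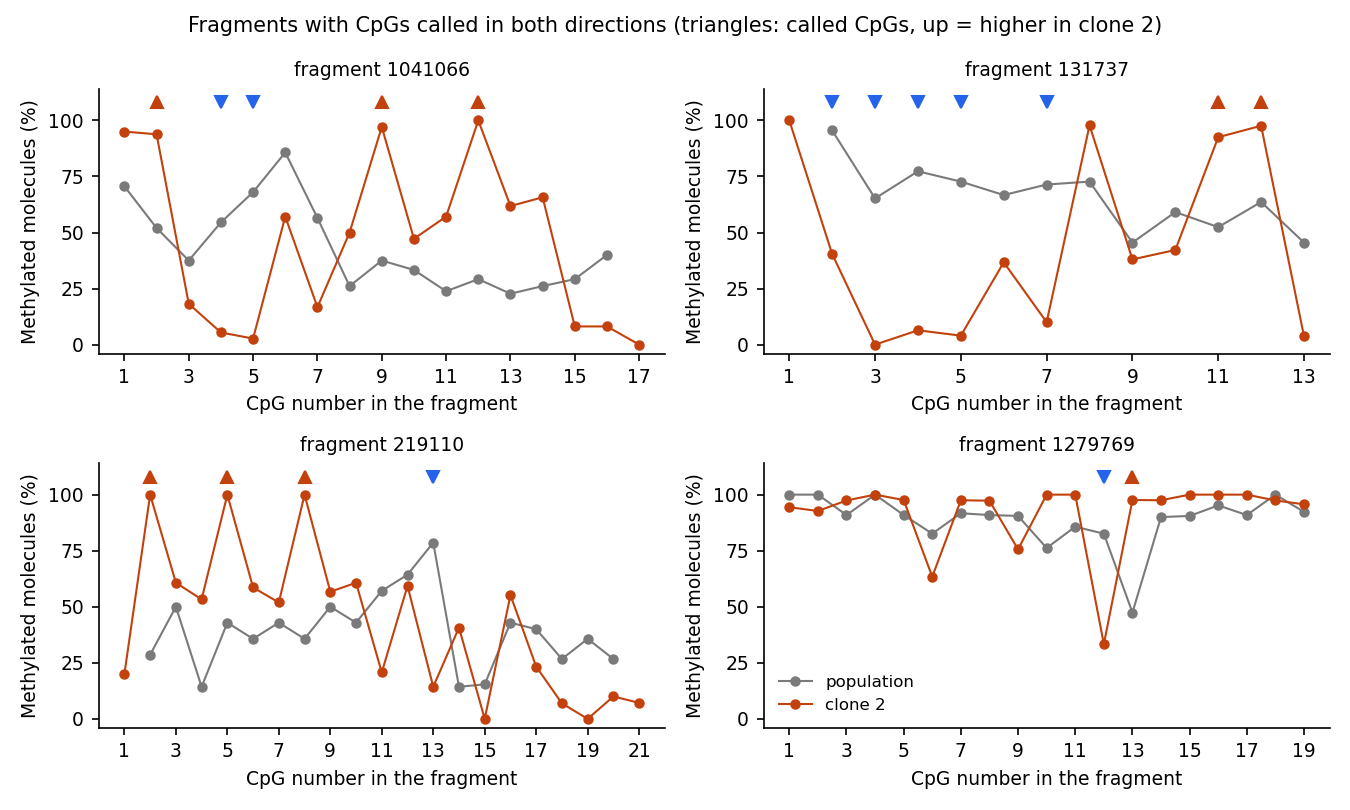
Percentage of methylated molecules at each CpG with at least 10 molecules, in the population (grey) and clone 2 (orange), for 4 of the fragments with CpGs called in both directions, triangles marking called CpGs. Clone 2 swings between values near 0, the middle and 100% from CpG to CpG, as on fragment 219110 with 28 of 28 at CpG 2 and 0 of 30 at CpG 15, while the population, at 13 to 15 molecules a CpG, lies between 14.3 and 78.6% there.

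To count such patterns at places not chosen by their patterns, each fragment was represented by its window of 4 consecutive CpGs with the most molecules. In both libraries, 53740 fragments had at least 10. The count itself was chosen after values of these data had been seen. A mixed pattern led with at least 80% of molecules in 371 windows of clone 2 (0.69%), against 24 of the population (0.0447%). Clone 1 had 316 of 51029 (0.619%). In clone 2 the leading pattern had 3 methylated CpGs in 229 of these windows, 2 in 50 and 1 in 92. The pattern that led in clone 2 had a median share of 18.2% in the population (quartiles 8.33 and 36%), and in 51 windows the population did not carry it on any molecule, at a median depth of 15. In 91 of the 371 it was also the population's commonest pattern, and 23 of the 371 (6.2%) were called as fragments, against 1.18% of all tested fragments.

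The deepest of these windows had both shared and private patterns. On fragments 937787 and 555408 the pattern ●○●● led in every library, with 52 of 81 and 47 of 53 molecules in the population and 80 of 99 and 49 of 59 in clone 2. On fragment 617498 ○●●● had 5 of 18 molecules in the population, 17 of 30 in clone 1 and 40 of 41 in clone 2. Fragment 640874 gave ●○●● on 0 of 25, 3 of 48 and 35 of 39 molecules in the same order, and fragment 1372677 gave ○○●● on 0 of 15, 0 of 29 and 31 of 36. Windows with 1 methylated CpG included fragment 264431, with ●○○○ on 29 of 36 clone 2 molecules and on 0 of 12 in the population, and fragment 754045, with ○○●○ on 30 of 35 and 0 of 14. On fragment 754045 the called CpGs, 2 and 5, were losses, and CpGs 1 and 6 outside the window were methylated on 15 of 20 and 14 of 15 clone 2 molecules.

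Where 1 pattern held at least 50% of molecules in each library, complete states were mostly kept. Of 24917 windows led by wholly unmethylated molecules in the population, 23957 were so in clone 2, 120 were led by wholly methylated and 840 by mixed ones. Of 21437 led by wholly methylated molecules, 20430 were kept, 26 became unmethylated and 981 mixed. A partial change of the leading pattern was thus counted more often than a complete switch in either direction. Mixed patterns led 320 of the population's windows, and 105 of these were led by methylated molecules in clone 2, 8 by unmethylated and 207 by mixed ones.

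Windows with a pair of patterns were likewise more frequent in clone 2. With 2 patterns at 35% or more each and at 90% or more together, the leading one under 65%, there were 2588 such windows in clone 2 (4.82%) and 359 in the population (0.668%). The patterns differed at 1 CpG in 2136 of the clone 2 windows, at 2 CpGs in 229, at 3 in 113 and at all 4 in 110. In the population these were 335, 0, 2 and 22. Clone 1 had 2458 of 51029 windows, also 4.82%.

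Fragments intermediate in the population moved outwards in clone 2. To choose and to measure on different molecules, the population was divided by tag: 1 part chose 10104 fragments at 20 to 80%, and the rest was compared with clone 2 as the exact expectation of drawing 10 molecules. With 9 or 10 methylated of 10 there were 25.7% of fragments in the rest of the population and 40.7% in clone 2, and with 0 or 1 there were 5.03% and 7.51%. The classes of 2 to 3 and 7 to 8 held 12.8% and 26.9% in the population and 8.15% and 22.1% in clone 2. The middle, 4 to 6, went from 29.6% to 21.5%. Clone 1 had moved in much the same way, on the 10033 of these fragments it covered. It had 38.1% at 9 or 10, 22.6% at 4 to 6 and 8.18% at 0 or 1. On 832 fragments with 10 or more CpGs the share at either extreme went from 21.6% to 38.9%, and on 3639 with 4 CpGs from 31.5% to 48.7%.

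Single CpGs at greater depth showed the same spreading with the middle kept. At 2673 CpGs chosen in 1 part of the population, with at least 20 molecules in its rest and in clone 2, 19.3% were over 95% in clone 2 and 5.99% in the rest of the population. Under 5% were 4.26% and 0.898%. Levels of 15 to 35% were held by 9.8% in clone 2 against 15.7%, and levels of 65 to 85% by 18.1% against 32.1%. At 40 to 60% there were 19.4% and 19.6%. The median depth was 37 molecules in clone 2 and 22 in the rest of the population, so counting error widened the population's values more.

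**Figure D4:**
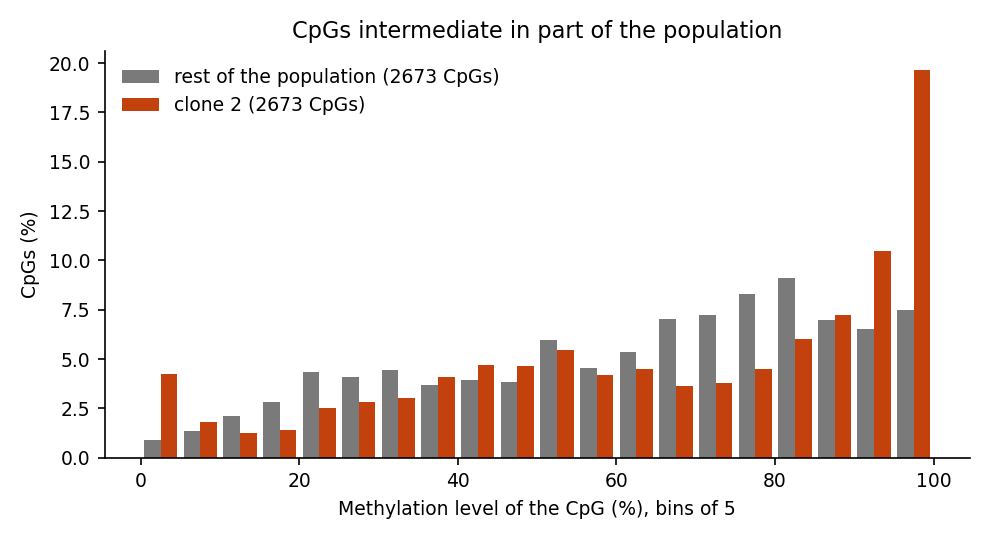
Share of 2673 CpGs (y axis) by methylation level in bins of 5 points (x axis) in the rest of the population (grey) and in clone 2 (orange), the CpGs having been chosen as intermediate on other population molecules. Clone 2 stands above the population at both ends and below it at 15 to 35% and 65 to 85%, with 19.4% and 19.6% of CpGs at 40 to 60%.

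Averaged over covered CpGs clone 2 was higher in each class of starting level and CpG number. With the class taken from 1 part of the population and the level from the rest, CpGs at 20 to 80% were higher in clone 2 by 3.53 percentage points on fragments with 2 to 4 CpGs, by 5.5 on those with 5 to 9, by 5.68 on those with 10 to 19 and by 3.58 on those with 20 or more. CpGs under 20% rose more on CpG-poor fragments, with 5.04 points at 2 to 4 CpGs (9.87 to 14.9%), 2.57 at 5 to 9, 0.8 at 10 to 19 and 0.361 at 20 or more. CpGs over 80% were higher by 0.725 to 3.01 points in these 4 classes, the last on 671 CpGs. No interval between replicates could be given for these means. Over all CpG calls of each library, covered in both or not, the direction was the other one, with 53.7% methylated in the population and 52.3% in clone 2.

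Molecules of the other strand, which had not entered a call, mostly showed the same direction. For single CpGs with 10 molecules on each strand in both libraries, 453 of 96406 were called higher (0.47%) and 231 lower (0.24%) on the plus strand alone. The minus strand had the same direction at 449 and 230 of them. The median difference was 70 points on the calling strand and 53.2 on the other for higher CpGs, and -70 and -54.9 for lower ones. Calls on the minus strand alone, 437 higher (0.453%) and 258 lower (0.268%), had the same direction on the plus strand at 435 and 255. Over all tested CpGs the minus strand was higher in clone 2 at 35% and lower at 25.9%.

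For whole fragments the other strand was compared in the same way. Of 82 fragments called higher on the plus strand alone (0.271% of 30239), 78 were higher on the minus strand, and of 33 called lower (0.109%), 25 were lower there. Their medians were 50 and -25 points on the minus strand, against 71.1 and -69.3 on the calling strand. Calls on the minus strand, 75 higher (0.248%) and 27 lower (0.0893%), were repeated on the plus strand by 74 and 25. Over all tested fragments the minus strand was higher in clone 2 at 30.8% and lower at 21.5%. Whether rises and falls repeated at different rates was not tested. Both strands of a fragment cover partly different CpGs, while the CpG comparison uses the same CpG on both.

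Within called fragments the CpGs went the same way more often for rises than for falls. Molecules at exactly 50% counted as not methylated, so a fall could be called with fewer changed CpGs than a rise. The part of this rule in the contrast was not tested. The same molecules had also entered the calls, and over all tested CpGs 35.8% were higher and 26.8% lower. Of 952 higher fragments with at least 2 tested CpGs, 679 (71.3%) had every tested CpG higher, and of 347 lower ones 157 (45.2%) had every one lower. The CpG that moved least differed by a median of 11.1 points in the direction of a higher fragment and by 0 in that of a lower one. The CpG that moved most did so by 63.2 and 60.6 points.

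Called fragments with adjacent numbers shared their direction. There were 41 such pairs among 16737 adjacent pairs tested (0.245%), of which 37 were higher in clone 2 on both sides, 4 lower on both and 0 opposite. They formed 35 runs of 2 and 3 runs of 3. Tested neighbours of fragments called higher, called or not, had a median difference of 23.5 points over 333 neighbours, and 83.5% were higher, against 34% of all tested fragments. Over the 86 neighbours of fragments called lower the median was -5.23 points, and 59.3% were lower, against 23.5%.

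The 3 longest runs were all higher in clone 2. Fragments 1031308, 1031309 and 1031310 went from 6 of 33, 6 of 20 and 18 of 28 methylated molecules in the population to 17 of 20, 38 of 38 and 53 of 53. On fragment 1031310 CpGs 1 to 3 rose from 6 of 12, 14 of 27 and 15 of 25 to 28 of 28, 47 of 47 and 42 of 42, while CpG 4 was at 25 of 25 in the population already. Clone 1 had 3 of 15, 25 of 30 and 27 of 43 over this run. Fragments 1391716, 1391717 and 1391718 went from 13 of 38, 6 of 33 and 0 of 18 to 36 of 40, 34 of 43 and 10 of 19. In this run clone 1 was high as well, with 34 of 35, 44 of 51 and 6 of 15. Fragments 1389162, 1389163 and 1389164 are among the crowded ones, and went from 14 of 69, 10 of 49 and 4 of 44 to 90 of 132, 80 of 124 and 36 of 73. Clone 1 lay in between there, with 42 of 105, 24 of 79 and 13 of 62.

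The reach of a departure was described by correlating differences across sites, at sites intermediate in the population. The difference of a CpG on 1 strand and of the same CpG on the other correlated at 0.67 (Pearson, 12331 pairs), that of the next CpG at 0.26 (11920 pairs) and that of the CpG 6 steps away at 0.197 (1860 pairs). Between fragments of adjacent number the correlation was 0.365 (929 pairs), at 3 to 5 numbers 0.249, at 51 to 100 numbers 0.0195, and at 1001 to 1100 numbers -0.00044. The pairs share both libraries but no molecules, and sites are not independent replicates. Within a fragment the correlation thus dropped at the first step and then hardly changed, and between fragments it was small from 6 numbers on (0.0557 at 6 to 10). The scales of CpGs and fragments are not comparable, since a fragment averages several CpGs.

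**Figure D5:**
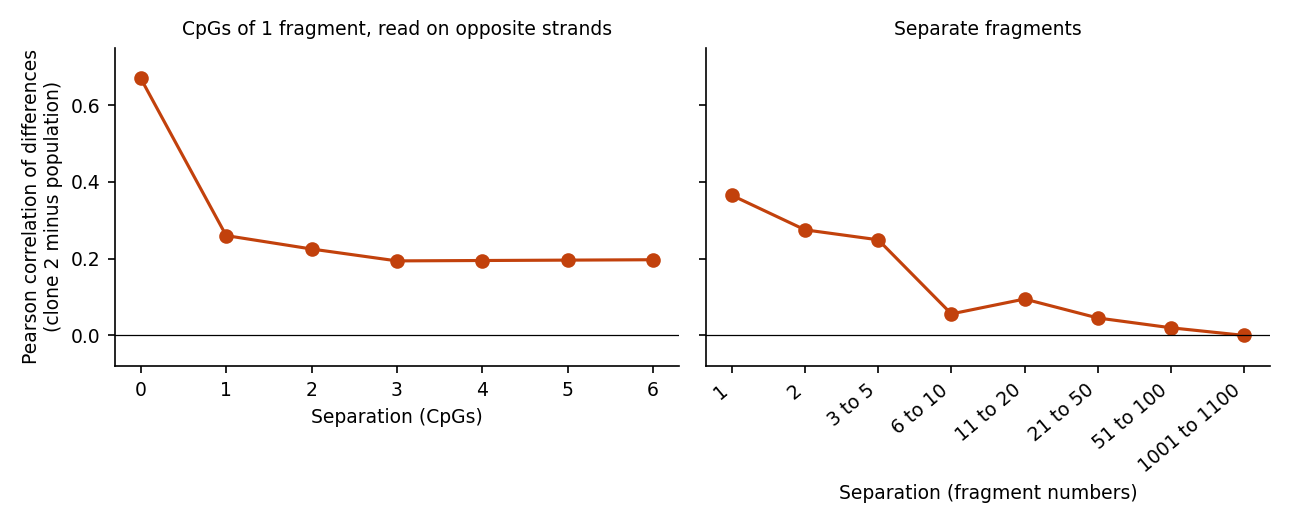
Pearson correlation (y axis) of differences, clone 2 minus population, between CpGs of 1 fragment read on opposite strands by CpG steps (left) and between fragments by steps in fragment number (right), at sites with 20 to 80% in the population. It is 0.67 for the same CpG and 0.26 for the next, and goes from 0.365 for adjacent fragments to -0.00044 at 1001 to 1100 numbers.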

How the data were processed

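The deposited files list, per the file contents (they have no header), a fragment number, strand, tag of 6 bases and a pattern with 1 character per CpG, with a count of reads per tag that the authors did not normalize and a whole number of unstated meaning. The submitters' processing notes name Bismark and mouse build mm9. Versions, filters and the pooling of replicates were not stated in the labels. Fragments have no coordinates in the files, so none are printed.

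A molecule was a distinct combination of fragment, strand and tag. CpGs, and fragments with at least 4 CpGs, were compared with at least 10 molecules in both libraries by two-sided Fisher's exact tests, adjusted over all features by the Benjamini-Hochberg method (Python 3.11.15, numpy 2.4.6), checked against scipy 1.17.1 and tested on simulated data. Calls required 20 percentage points and an adjusted p under 0.05. Named fragments are the 10 widest called per direction, the 5 per direction with most CpGs and with most clone 2 molecules, the 5 deepest at 40 to 60% in clone 2, and the 3 longest runs; not all are printed. Fragments shown for their patterns, and the counts of windows, lone CpGs and site correlations, were chosen after their values were seen. Comparison, thresholds and lists were chosen with earlier results of these data known. Precision is set by molecules per CpG.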

Additional observations from a re-analysis of the deposited data

Results flagged for a closer look

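At 12 of 20 fragments, the 10 widest rises and the 10 widest falls from the population, clone 2 and clone 1 differed from each other, by Fisher's exact test between the clones with Benjamini-Hochberg adjustment over all fragments tested. Clone 2 minus clone 1 was 94.1 percentage points at fragment 689517 (adjusted p 2.82e-05) and 100 at fragment 1514989 (6.16e-07), which were both higher in clone 2 than in the population. The other 10 are the fragments that fell most. Among them the difference was -83.9 at fragment 1440069 (2.11e-14), -95.5 at 547104 (9.36e-10), -90.9 at 1097913 (0.000204), -94.4 at 1385218 (4.58e-14) and -75 at 1546401 (0.0305). It was -51.5 at 245694 (0.00808), -92.9 at 1477714 (0.000372), -70 at 443552 (0.0164), -78.3 at 307890 (0.0011) and -90.5 at 874680 (1.81e-07). The fragments were chosen for their difference between clone 2 and the population, which makes a difference from clone 1 more likely.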

How the results depend on the processing

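No paired analysis was possible because both samples of a clone are in 1 deposited file and the population has 1 sample, and for the same reason no replicate could be left out. Against 11712 called CpGs, a minimum of 20 or 30 molecules left 7187 and 1543, Bonferroni adjustment 820, molecules with 2 or more reads 832, the plus or minus strand alone 1647 and 1643, and the deepest CpG of each fragment 4026, with 53.9% of these higher against 64.2%. Against 1368 called fragments, a minimum of 30 left 364, Bonferroni 167 (83.8% higher), 2 or more reads 85 (85.9% higher), and the plus or minus strand 175 and 140. Requiring every observed CpG to be methylated gave 2115, and fragments with any number of CpGs 2331 (62.6% higher). Fewer molecules or fewer sites enter most of these by construction; for the change with the definition of a methylated molecule the cause was not tested. The mean difference of 1.57 points became 1.53 with 20 molecules, 1.77 with fragments weighed equally and 1.63 with 2 or more reads. The gain at the extremes, 17.6 points, became 12.9 with the population divided by strand and 20.95 for fragments at 30 to 70%. Counting as mixed only molecules with 2 minority CpGs turned the difference in mixed molecules from 0.989 to 0.869 points over all fragments, from -0.118 to -2.3 at higher and from 18.4 to 21.8 at lower ones. With 20 molecules per CpG, 79.1% of higher and 64.7% of lower fragments had every CpG in their direction. For single CpGs 99.3% of higher and 99.2% of lower calls kept their direction on the other strand, against 96.8% and 83.3% for fragments. Windows led by a mixed pattern numbered 1468 at a share of 60% (149 in the population), 156 at 90% (8) and 55 with 20 molecules (5). Of 569 values for 47 named fragments under the alternatives, 420 kept the call, 148 kept the direction without it, and 1 reversed: fragment 397517, at 8.33 points when 1 methylated CpG was enough. Without strands of over 25 molecules 9918 CpGs, 1150 fragments and 353 windows were called, without molecules with a last value above 0 10993 CpGs and 1288 fragments, and without calls at filled-in ends 11735 and 1377. The last pair of settings, the windows' settings and the repeat at single CpGs were chosen after seeing the data.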
